A study of Mus musculus with 19 samples.

Results

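Myc and 35 genes of ribosome biogenesis were followed through 6 groups of sorted mouse B-lineage cells, 19 bulk RNA-seq libraries in all. The set is a list of 36 gene names grouped by function, whose rule uses no measured value, although earlier results of these data were known when it was drawn up. All 36 were found in each of the 4 deposited tables. The germinal centre table lists 17939 genes and the other 3 tables list 19397.

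Every mouse had received an intraperitoneal injection of sheep red blood cells (SRBC), and tissues were taken on day 28. Germinal centre B cells (CD95+/GL7+) and naive B cells (CD3-/B220+/IgD+) came from spleen, and antibody-secreting cells (CD138+) from spleen or bone marrow. Germinal centre B cells had 4 libraries labelled Pik3cg Knockout and 3 labelled Wild type, naive B cells had 3 and 3, and both kinds of antibody-secreting cell had 3 libraries labelled Wild type and none labelled knockout. The series design names 3 wild-type and 4 knockout mice. The sources used here give no mouse age, strain, knockout allele or driver of the deletion. Pik3cg encodes the gamma catalytic subunit of phosphoinositide 3-kinase. For naive and secreting cells, the column headers read HET for the 9 samples labelled Wild type; the sample labels are used here.

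Values are counts per 1000000 assigned reads (CPM), and 10.2 to 21.6 M reads (1 M is 1000000) lay behind each library. Pik3cg itself did not differ detectably between the labels, with a wide interval in germinal centre B cells. Its germinal centre values were 66.0, 52.8, 6.6 and 9.0 CPM for labelled knockout and 56.5, 34.3 and 19.4 CPM for labelled wild type (limma log2 fold change −0.60, 95% interval −2.51 to 1.32, adjusted p = 0.696). Its naive values were 94.98, 126.8 and 97.7 CPM for labelled knockout and 114.5, 110.1 and 110.6 CPM for labelled wild type (−0.08, −0.43 to 0.27, adjusted p = 0.935). In germinal centre B cells, replicates 3 and 4 labelled knockout lay below every library labelled wild type and replicate 1 lay above them. The transcript did not separate the labels, and every genotype comparison below is one between labels. The part of the gene that was deleted is not given, so a transcript that lacks it could still be counted.

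The germinal centre libraries also differed by label in their markers, given here as sums of CPM after immunoglobulin genes and Jchain were taken out of the total. A list of 10 germinal centre genes summed to 368–449 CPM in the libraries labelled wild type and to 2719–3546 CPM in those labelled knockout. Rgs13, S1pr2 and Gcsam, which define germinal centre B cells, were at 0 in all 3 libraries labelled wild type. A list of 10 antibody-secreting cell genes summed to 5830–8328 CPM against 1430–1984 CPM, 20 T cell genes to 137–242 CPM against 1706–3636 CPM, and 15 monocyte and macrophage genes to 690–765 CPM against 630–4000 CPM. Of the 20 T cell genes, 9 to 13 were at 0 in a library labelled wild type and at most 3 in one labelled knockout. Erythroid genes reached 3058 CPM in replicate 1 labelled knockout and no more than 2.59 CPM in the libraries labelled wild type. In deposited CPM, replicate 3 labelled wild type had Xist at 0 and the Y-linked Ddx3y at 159 CPM. The other germinal centre libraries had Xist at 11.6 to 205 CPM and Ddx3y at 0. The part of all these markers in the genotype results below was not tested.

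A ribosome is assembled in the nucleolus, where RNA polymerase I copies the ribosomal RNA genes into one long precursor. Small nucleolar ribonucleoproteins modify that precursor, the small subunit processome folds and cleaves it, and separate factors finish the small and the large subunit. Myc is a transcription factor that raises transcription of many of these genes when cells grow, largely through the E-box CACGTG. In B cells it is known for its induction by antigen and T cell help, and in germinal centres for its restriction to a minority of cells that have been selected.

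The E-box was looked for in the promoters, because it is the sequence that links Myc to the other members. RefSeq promoter windows (GRCm38.p6, 250 bases before to 50 after each start) matched 30 of the 36 members; Myc, Npm1, Fbl, Bop1, Rrs1 and Rrp12 had no entry. CACGTG, which reads the same on both strands, occurred in 8 of the 30 windows (26.7%). It occurred in 2187 of the 27025 genes in the table (8.09%), in 12.5% of the 6321 genes with a window and at least 10 CPM in germinal centre B cells, and in 16 of 84 other ribosome assembly genes (19.05%). The palindromic ZBTB33 motif, the only other motif searched, was in 0 of the members' windows and in 142 genes of the table (0.525%). The 8 windows are shown as 30 bases on the gene's strand, 5′ to 3′, with the E-box in capitals.
Pno1: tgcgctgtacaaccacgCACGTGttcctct
Wdr43: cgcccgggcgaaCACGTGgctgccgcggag
Pes1: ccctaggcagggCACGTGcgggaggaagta
Utp20: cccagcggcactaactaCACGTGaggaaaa
Ltv1: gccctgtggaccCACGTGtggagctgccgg
Tsr1: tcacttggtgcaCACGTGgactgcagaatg
Mybbp1a: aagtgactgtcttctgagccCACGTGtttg
Nop2: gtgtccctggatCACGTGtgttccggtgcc
These lie at chr11:17211540-17211569 (minus strand) for Pno1, chr17:71616220-71616249 (plus) for Wdr43, chr11:3963965-3963994 (plus) for Pes1 and chr10:88826765-88826794 (minus) for Utp20. The others lie at chr10:13193092-13193121 (minus) for Ltv1, chr11:74898092-74898121 (plus) for Tsr1, chr11:72441347-72441376 (plus) for Mybbp1a and chr6:125131811-125131840 (plus) for Nop2. In 7 of the 8 genes the E-box began after the transcription start, 3 to 41 bases downstream. In Nop2, which encodes a ribosomal RNA methyltransferase, it began 60 bases upstream. These are matches of letters, and no binding was measured.

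Among the cell types, germinal centre B cells held the highest levels of most members and Myc itself was highest in naive B cells. The members' deposited CPM summed to 1965–2190 in the 6 naive libraries, 3790–4380 in the 7 germinal centre libraries, 290.6–367.2 in spleen and 209–733 in bone marrow antibody-secreting cells. The highest of the 6 group means was in a germinal centre group for 31 members and in a naive group for 5. Immunoglobulin and Jchain transcripts took 72.3% to 76.7% of the counts in spleen and 78.0% to 83.6% in bone marrow antibody-secreting cells, against 3.7% to 4.2% in naive and 2.6% to 13.6% in germinal centre B cells. Each level of the antibody-secreting cells was therefore also computed on the total without those transcripts. On that total the members summed to 2043–2285 CPM in naive, 4298–4813 CPM in germinal centre, 1247–1358 CPM in spleen secreting and 1273–3329 CPM in bone marrow secreting libraries. The 4 tables were normalized separately, so levels set across germinal centre and other cells are described without a test. In sorted bulk samples, fewer cells of a type and less RNA per cell cannot be told apart.

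**Figure D1:**
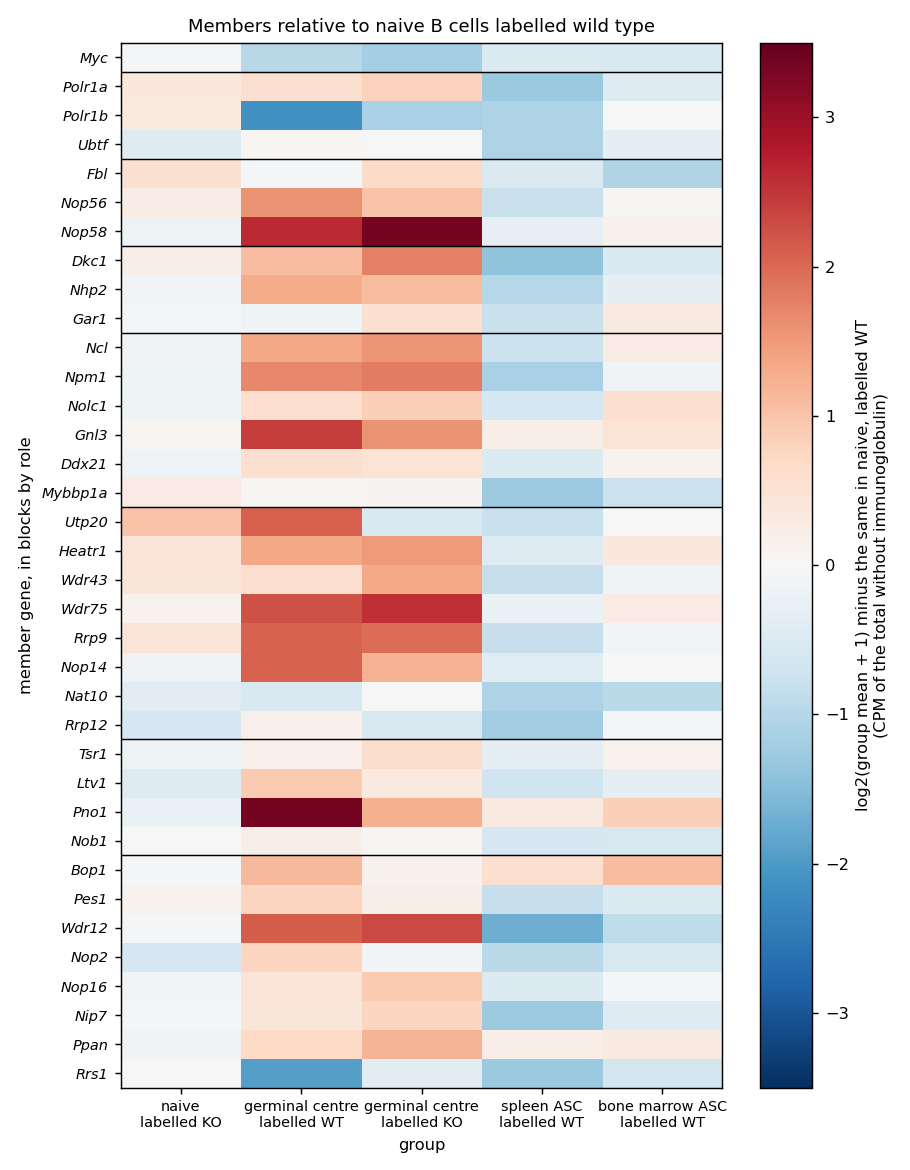
Colour gives log2(group mean + 1) minus the same in naive B cells labelled wild type, from CPM of the total without immunoglobulin genes and Jchain, for 36 members (blocks by role) in the other 5 groups. Both germinal centre columns are red for most members, with Pno1 the deepest where labelled wild type and Nop58 where labelled knockout, while Myc is blue in both.

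Myc ran opposite to most of the genes listed with it. Its naive values were 181.5, 124.2 and 255.3 CPM (labelled wild type) and 198.6, 190.0 and 161.2 CPM (labelled knockout). Its germinal centre values were 83.0, 102.7 and 78.5 CPM (labelled wild type) and 73.4, 86.6, 70.2 and 91.3 CPM (labelled knockout). All 7 germinal centre libraries lay below all 6 naive libraries, and the ratio of the means was 0.45. It was the only member with that order, against 9 members whose 7 germinal centre libraries all lay above the 6 naive ones. Over all listed genes, 9.83% lay wholly above and 13.8% wholly below. Over the 8871 of them with a mean of at least 10 CPM, 15.9% lay wholly above and 15.9% wholly below.

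The 9 members wholly above were Nop56, Nop58, Dkc1, Nhp2, Ncl, Npm1, Wdr75, Pno1 and Wdr12. The means of germinal centre libraries exceeded those of naive libraries for 31 of 36 members, and the median ratio was 1.60 against 1.09 over all genes compared. Without immunoglobulin in the total the ratio was 1.67 against 1.12, Nolc1 joined the 9 (17.1% of genes wholly above), and Myc was still the 1 member wholly below (15.5% of genes). The 5 members with a lower germinal centre mean were Myc, Polr1b (0.28 of the naive mean), Rrs1 (0.53), Mybbp1a (0.91) and Nat10 (0.97).

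The members that transcribe ribosomal RNA overlapped between naive and germinal centre B cells. Polr1a and Polr1b encode the largest subunits of RNA polymerase I, and Ubtf encodes the factor that holds ribosomal RNA genes open. Their sum without immunoglobulin in libraries labelled wild type was 133 ± 8.26 CPM (SD, n = 3) for naive and 121 ± 19.4 CPM (n = 3) for germinal centre B cells. The matching sums labelled knockout were 120 ± 32.5 CPM (n = 3) and 129 ± 25.7 CPM (n = 4). These 4 ranges overlapped. The sum joins members of opposite order in the group means labelled wild type, here without immunoglobulin and per kilobase of exon. Polr1b stood at 4.93 CPM in naive and 1.00 CPM in germinal centre B cells, and Polr1a at 1.06 and 1.59 CPM. The sum was 60.5 ± 2.46 CPM (n = 3) in spleen and 110 ± 56.2 CPM (n = 3) in bone marrow antibody-secreting cells.

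The box C/D and box H/ACA particles guide methylation and pseudouridylation of ribosomal RNA, and their proteins were among the members highest in germinal centre B cells. Nop58, a core box C/D protein, stood at 21.6 to 33.6 CPM in the 6 naive libraries and at 125.1 to 310.1 CPM in the 7 germinal centre libraries, 8.93 times the naive mean. Nop56, its partner in the same particle, stood at 88.1 to 159.3 and 230.2 to 380.8 CPM (ratio 2.09). Fbl, the methyltransferase of the particle, was low throughout, at 12.1 to 30.1 CPM in naive and 3.78 to 25.4 CPM in germinal centre B cells. Of the box H/ACA proteins, the pseudouridine synthase Dkc1 had a ratio of 2.54 and Nhp2 of 2.29, while Gar1 stayed between 4.55 and 27.4 CPM in all naive and germinal centre libraries. Fbl and Gar1 thus overlapped between these cell types where their partners did not.

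The abundant nucleolar proteins had the same order as the snoRNP proteins. Ncl (nucleolin, which binds ribosomal RNA precursors) stood at 239.4 to 315.7 CPM in naive and 606.3 to 934.5 CPM in germinal centre libraries, with a ratio of 2.76. Npm1 (nucleophosmin, a nucleolar chaperone) stood at 123.1 to 158.4 and 409.4 to 655.4 CPM, with a ratio of 3.40. Gnl3 (nucleostemin) had a ratio of 3.81, with germinal centre replicate 2 labelled knockout at 22.1 CPM inside the naive range. Mybbp1a, a nucleolar partner of Myb, overlapped throughout.

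Among the factors that mature the subunits, Pno1, Wdr75 and Wdr12 had 7 germinal centre values above 6 naive ones. Pno1, an RNA-binding factor of late small subunit assembly, stood at 42.8 to 62.5 CPM in naive and 92.4 to 617.0 CPM in germinal centre libraries (ratio 5.93). Wdr75, of the small subunit processome, stood at 6.84 to 19.3 and 26.9 to 90.3 CPM (ratio 5.24). Wdr12, which with Bop1 and Pes1 forms a complex needed for the large subunit, stood at 14.3 to 22.6 and 65.6 to 127.0 CPM (ratio 4.72). Its partner Bop1 ranged from 0.21 to 56.7 CPM over the germinal centre libraries, and Pes1 overlapped with the naive range.

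Per kilobase of exon, Myc ranked first of the 36 members in naive B cells of both labels and in spleen antibody-secreting cells. Its level without immunoglobulin was 71.8 CPM per kb for naive B cells labelled wild type and 50.7 CPM per kb for spleen antibody-secreting cells. In germinal centre B cells labelled wild type it ranked 8 (36.7 CPM per kb), behind Pno1 at 354.6, Npm1 at 182 and Nhp2 at 177 CPM per kb. In those labelled knockout it ranked 12 (31.6 CPM per kb), behind Npm1 at 198.9, Nhp2 at 154 and Ncl at 90.0 CPM per kb. The lengths are unions of annotated exons, so a long rarely used exon lowers a gene's value. They were 2.72 kb for Myc and 10.2 kb for Ncl, and the ranks, the first rank of Myc included, depend on them.

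**Figure D2:**
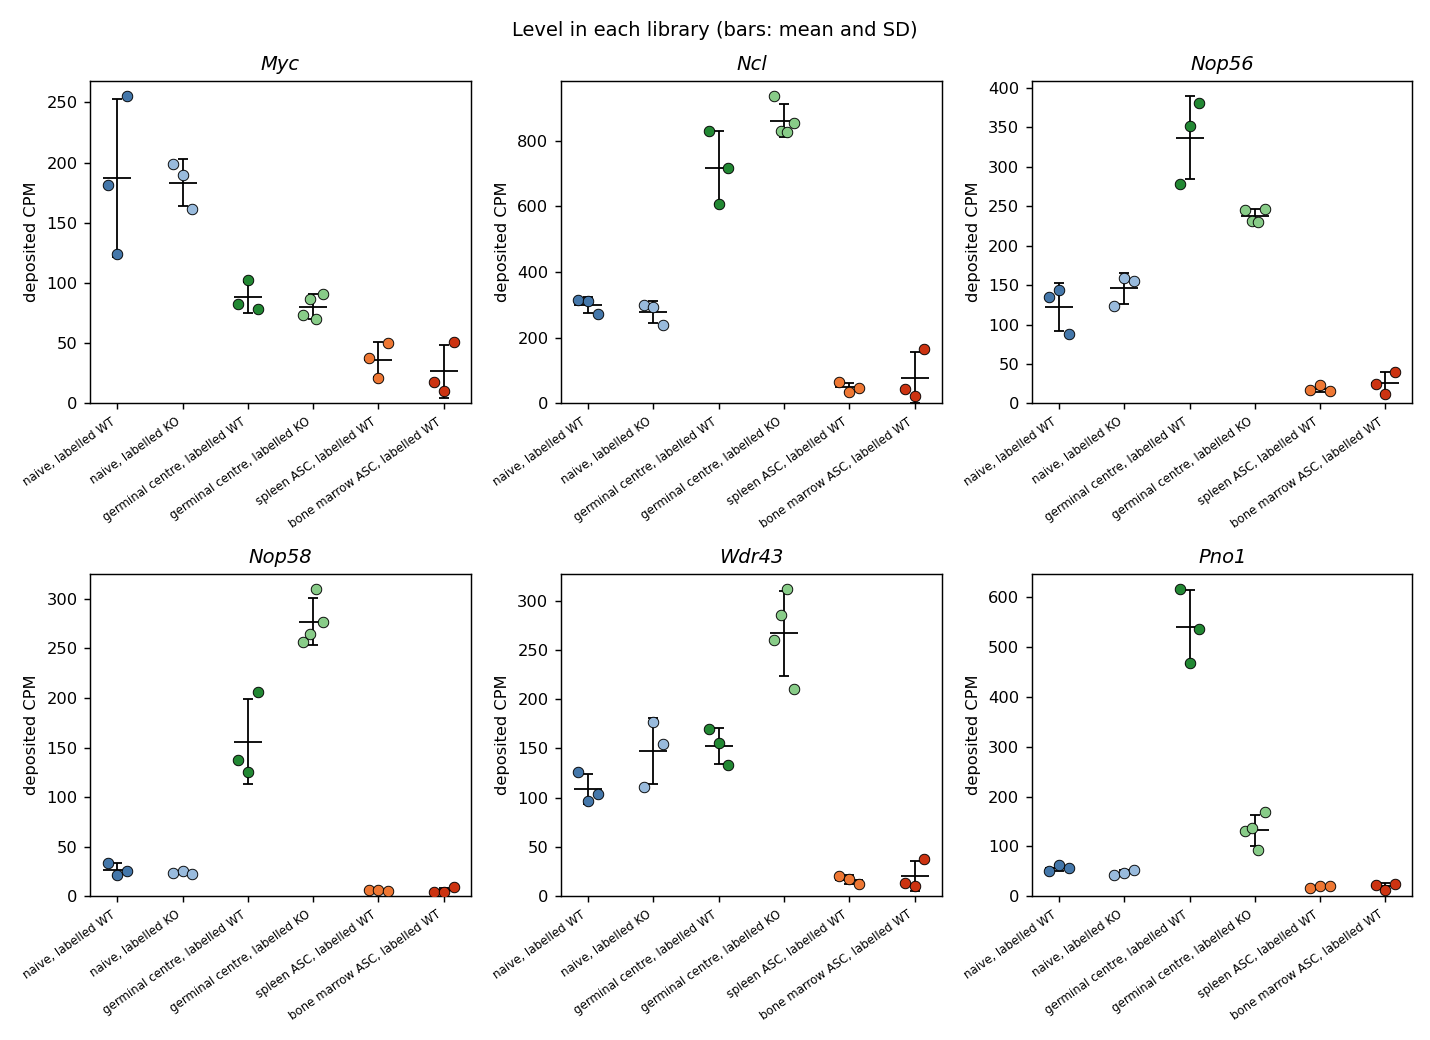
Points are single libraries in deposited CPM, with bars for the group mean and SD, for 6 members. Myc is highest in naive B cells, Ncl, Nop56 and Nop58 in germinal centre B cells, and Pno1 separates the germinal centre libraries labelled wild type (468.1 to 617.0 CPM) from the rest.

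Germinal centre B cells labelled knockout were compared with those labelled wild type, the contrast the series was built on. Pno1 was lower in the libraries labelled knockout, and Nop58 and Wdr43 were higher. Myc did not pass the test and most other members overlapped. Of the 36 members, 32 reached a mean of 10 CPM and were tested (Polr1b, Utp20, Nat10 and Rrp12 were not), and 3 had a limma adjusted p under 0.05, beside 13.6% of the 8522 genes tested. By direction 2 were higher (8.54% of all) and 1 was lower (5.09% of all), so the members' share was close to the background. The median log2 fold change of the 32 was 0.15, and 0.03 over all genes tested. At an unadjusted p under 0.05 there were 3 higher and 2 lower, beside 28.2% of all genes.

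Pno1 (ENSMUSG00000020116, chromosome 11, 17203198 to 17211568, minus strand, mm10) read 130.8, 135.9, 92.4 and 168.8 CPM for labelled knockout. For labelled wild type it read 617.0, 468.1 and 536.8 CPM. The groups were far apart, at 132 ± 31.3 CPM (SD, n = 4) and 541 ± 74.5 CPM (n = 3). The fitted change was −2.05 on the log2 scale, with an SE of 0.22 and a limma adjusted p = 0.000702. It fell in each of the 7 fits that left out 1 library, by 1.89 to 2.18 on the log2 scale. Its exons overlap the annotated span of Wdr92 on the opposite strand, and the strand setting is not given in the sources used here. Wdr92 stood at 38.7 ± 17.2 CPM (n = 4) labelled knockout and 57.5 ± 33.7 CPM (n = 3) labelled wild type.

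Nop58 (ENSMUSG00000026020, chromosome 1, 59684971 to 59719044, plus strand) stood at 256.8, 264.5, 310.1 and 276.8 CPM labelled knockout. It stood at 137.5, 125.1 and 205.7 CPM labelled wild type. The groups did not overlap, and the change was 0.85 on the log2 scale (SE 0.20; adjusted p = 0.0224 by limma). Wdr43 (ENSMUSG00000041057, chromosome 17, 71615895 to 71659031, plus strand), a small subunit processome factor, stood at 260.3, 285.3, 312.1 and 210.6 CPM labelled knockout. It stood at 169.4, 155.1 and 133.5 CPM labelled wild type, again without overlap (0.79, SE 0.19; adjusted p = 0.0219 by limma). Both calls depended on single libraries and on the scaling and filter together. On the total without immunoglobulin and with no filter neither passed (adjusted p = 0.0784 for Nop58 and 0.0563 for Wdr43), and Pno1 was the 1 member called, beside 5.51% of genes. Without replicate 3 labelled knockout neither passed (adjusted p = 0.0531 for Nop58 and 0.0511 for Wdr43), and without replicate 2 labelled wild type neither passed (0.1002 and 0.0759). Without replicate 1 labelled wild type Nop58 did not pass (0.0824), and without replicate 3 labelled wild type Wdr43 did not (0.0832). Nop58 holds 4 and Wdr43 holds 3 annotated small nucleolar RNAs within the gene's span on the same strand. The E-box is in the promoter windows of Pno1 and Wdr43 shown above and not in that of Nop58.

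Nop56 went the other way from its partner Nop58. It stood at 244.7, 230.8, 230.2 and 246.9 CPM labelled knockout and at 278.5, 351.9 and 380.8 CPM labelled wild type. The groups did not overlap, yet the change of −0.49 on the log2 scale did not pass (SE 0.15; adjusted p = 0.0696 by limma). With immunoglobulin left out of the total it was −0.57 and passed (adjusted p = 0.0498). Groups were also apart for Pes1, at 52.0 to 60.7 CPM labelled knockout and 65.7 to 85.5 CPM labelled wild type (−0.45, adjusted p = 0.255). For Utp20, a processome scaffold under the filter, they were 8.51, 0.0555, 1.09 and 0.735 CPM against 29.0, 18.02 and 12.2 CPM. In all, 2 members lay wholly above and 4 wholly below, beside 8.9% and 9.17% of all listed genes.

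Other members with larger differences in the mean did not separate the labels. Rrs1, a large subunit factor, stood at 89.1, 34.6, 83.2 and 118.3 CPM against 39.7, 23.5 and 15.1 CPM (change 1.58 on the log2 scale, SE 0.49; adjusted p = 0.0651 by limma). Dkc1 stood at 276.5, 142.6, 376.5 and 283.2 CPM against 134.8, 146.6 and 193.8 CPM (0.70, adjusted p = 0.178). In both, replicate 2 labelled knockout lay within the range labelled wild type. Without that library both passed (limma adjusted p = 0.0195 for Rrs1 and 0.0208 for Dkc1), and the count of higher members was 4. Myc had a log2 fold change of −0.13 (95% interval −0.64 to 0.38, adjusted p = 0.753). That interval holds changes in both directions, so no difference was detectable with these libraries.

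**Figure D3:**
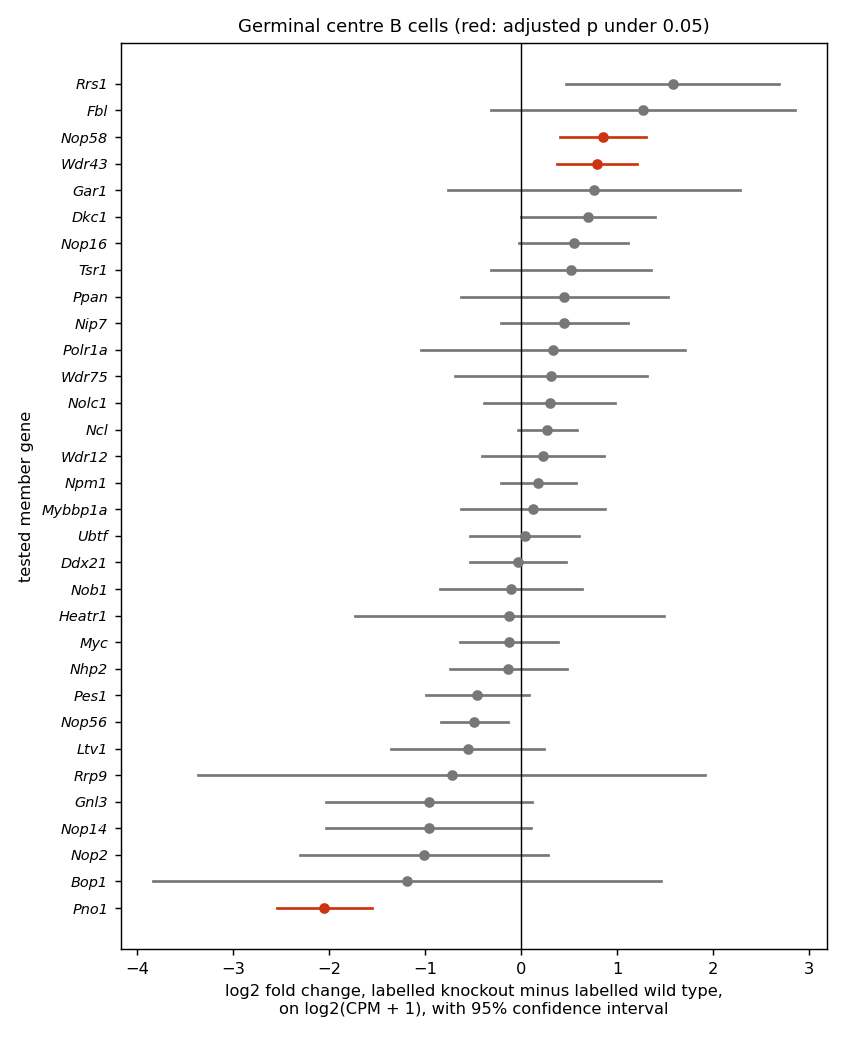
Log2 fold change of germinal centre B cells labelled knockout over labelled wild type for the 32 tested members, with 95% intervals from limma; red marks an adjusted p under 0.05. Pno1 lies at −2.05 and Nop58 and Wdr43 near 0.8, while the intervals of most others cross 0.

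Of the role sums, those of the late small subunit and of the box H/ACA proteins had ranges apart by label, in opposite directions. The late small subunit sum without immunoglobulin was 794 ± 61.9 CPM (SD, n = 3) labelled wild type and 318.9 ± 55.9 CPM (n = 4) labelled knockout, and Pno1 alone was 609 and 141 CPM of these. The other late factors, the GTPase-like Tsr1, the assembly factor Ltv1 and the endonuclease Nob1, did not pass. Box H/ACA proteins summed to 392 ± 15.3 CPM (n = 3) labelled wild type and 481 ± 58.9 CPM (n = 4) labelled knockout, with 0 of the 3 past the test. Box C/D proteins summed to 572 ± 129 CPM (n = 3) and 573 ± 31.6 CPM (n = 4), the opposite differences of Nop56 and Nop58 giving nearly the same sum.

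Genes related to the members were read from 3 lists. Of 100 other ribosome assembly genes, 88 were tested in germinal centre B cells, 4 were higher and 1 was lower in libraries labelled knockout, beside 8.54% and 5.09% of all genes tested. Emg1, a pseudouridine methyltransferase of the processome, stood at 390 against 201 CPM (log2 fold change 0.95), and Nop10, the fourth box H/ACA protein, at 162 against 93.1 CPM (0.80). Polr1d, shared by RNA polymerases I and III, stood at 108 against 58.3 CPM (0.91), and Taf1a, of the polymerase I selectivity factor, at 27.3 against 0.127 CPM. Wdr18 was lower, at 63.3 against 119 CPM (−0.90). Of 20 Myc network genes 14 were tested, with 2 higher and 1 lower, counts to be read beside the same shares of all genes. Bptf (2.03) and Ruvbl2 (0.97) were higher and Fbxw7, which marks Myc for degradation, was lower, at 108 against 272 CPM (−1.42). Of 34 Myc targets outside the nucleolus 32 were tested, with 2 higher (Set, 0.99; Ranbp1, 0.58) and 6 lower, again beside 8.54% and 5.09%. Among the 6 were the serine enzyme Shmt2 at 37.0 against 195 CPM (−2.58), Ccnd2 at 247 against 1262 CPM (−2.44), the amino acid transporter subunit Slc3a2 at 117 against 531 CPM (−2.35) and the transferrin receptor Tfrc at 43.6 against 152 CPM (−1.97). The medians of the 3 lists were 0.06, 0.004 and −0.28, beside 0.03 over all genes tested.

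In naive B cells no member passed the test between labels. Of the 36, 31 were tested and 0 were called by limma, beside 0% of the 8832 genes tested. At an unadjusted p under 0.05, 1 member remained, beside 6.65% of all. This was Ubtf, at 76.2, 64.3 and 52.9 CPM labelled knockout and 85.7, 85.4 and 92.8 CPM labelled wild type (change −0.46 on the log2 scale, SE 0.17; adjusted p = 0.740 by limma). It was the only member whose groups did not overlap, where 13.6% of all genes tested did not. Myc stood at 183 ± 19.6 CPM (n = 3) and 187 ± 65.7 CPM (n = 3), and Pno1 at 47.4 ± 4.57 CPM and 56.2 ± 6.32 CPM (limma log2 fold change −0.24, adjusted p = 0.816). None of the 82, 12 and 30 tested genes of the 3 related lists was called.

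Whether the label difference itself differed between germinal centre and naive B cells was tested in a fit of both tables. Of 33 members tested, Pno1 alone was called, with a difference of −1.81 (SE 0.28, limma adjusted p = 0.00207), beside 7.83% of all genes. The differences for Nop58 (1.01, adjusted p = 0.0615) and Nop56 (−0.76, adjusted p = 0.102) did not pass, and that for Wdr43 did not either. With no filter on low values Utp20 was called as well (limma adjusted p = 0.0454).

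Antibody-secreting cells were compared with naive B cells, both labelled wild type, to place the members in the end stage of the lineage. On deposited CPM, every tested member was lower in both tissues: 24 of 24 in spleen, beside 82.5% of the 6838 genes tested, and 24 of 24 in bone marrow, beside 88.4%. The median log2 fold change was −2.57 in each, and over all genes tested −1.95 in spleen and −2.32 in bone marrow. Ncl, for example, stood at 63.9, 35.6 and 46.3 CPM in spleen secreting cells and at 315.7, 313.2 and 272.3 CPM in naive cells. The filter takes the mean over naive and secreting libraries, so a member could pass through its naive level alone, and the other 12 members lay under it. With no filter, 35 of 36 members were lower in spleen, beside 50% of genes, and 34 of 36 in bone marrow, beside 55.6%. The share of counts that immunoglobulin takes lowers the CPM of every other gene. Of all genes called, 6.99% were higher in spleen and 4.98% in bone marrow on deposited CPM, and 46.6% and 48.5% on the total without immunoglobulin.

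On the total without immunoglobulin, 4 of 24 members were lower in spleen secreting cells (18.3% of all genes) and 0 were higher (16% of all). They had 4 different roles. Dkc1 stood at 31.1 ± 15.5 CPM against 84.3 ± 8.09 CPM (SD, n = 3 each), a change of −1.52 on the log2 scale (adjusted p = 0.0165 by limma). Ubtf stood at 42.9 ± 6.18 CPM against 91.8 ± 4.30 CPM (−1.09, adjusted p = 0.0104), and Npm1 at 67.9 ± 7.28 CPM against 152 ± 12.3 CPM (−1.15, adjusted p = 0.0194). Nip7, a large subunit factor, stood at 29.98 ± 6.25 CPM against 73.8 ± 11.0 CPM (−1.28, adjusted p = 0.0273). In all, 19 of 36 members lay wholly below naive cells, beside 19% of all listed genes, and 0 wholly above, beside 16%. The median over tested members was −0.77 and over all genes tested −0.20.

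Myc was not among the members that passed on that total. It stood at 140.9, 90.5 and 182.2 CPM in spleen secreting cells, overlapping naive cells at 195 ± 68.6 CPM (n = 3; limma log2 fold change −0.49, 95% interval −1.49 to 0.50, adjusted p = 0.429). In bone marrow it stood at 102.3, 64.7 and 233.5 CPM (−0.69, interval −1.68 to 0.31, adjusted p = 0.270). Gnl3, Pno1 and Ppan had negative values on deposited CPM and positive ones on the total without immunoglobulin in both tissues. Pno1 in bone marrow was the 1 member higher than naive cells with an adjusted p under 0.05 (104 ± 28.2 CPM against 58.6 ± 6.53 CPM, change 0.79 on the log2 scale, SE 0.26; adjusted p = 0.0358 by limma), beside 16.6% of all genes. None was lower there, beside 17.5%. On the same total without bone marrow replicate 3, Pno1 no longer passed (0.70, adjusted p = 0.083) and 8 of 24 members were lower, beside 20.2% of genes in that fit.

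**Figure D4:**
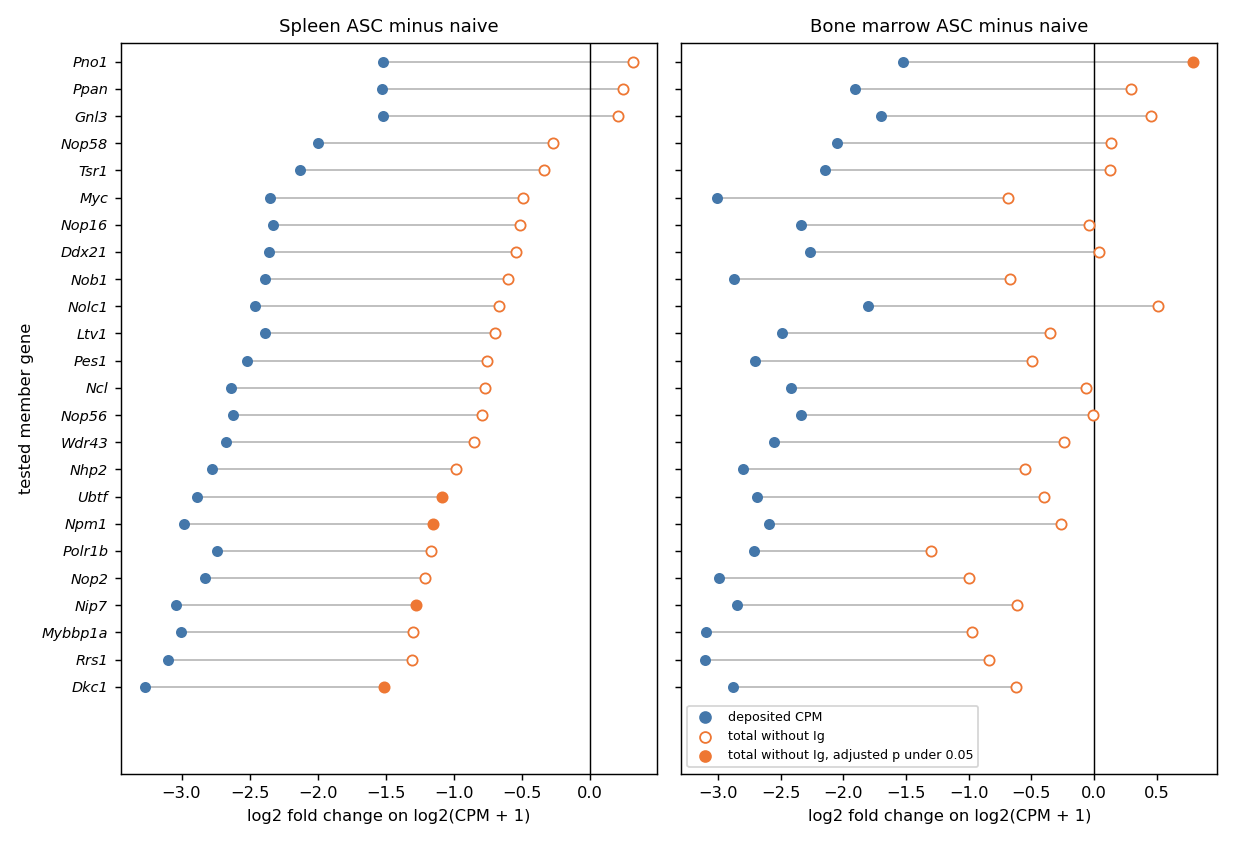
Log2 fold change of spleen (left) and bone marrow (right) antibody-secreting cells over naive B cells for the 24 tested members, on deposited CPM (blue) and on the total without immunoglobulin (orange, filled where the adjusted p was under 0.05). All blue points lie below −1.5, while the orange points lie around −0.77 in spleen and −0.31 in bone marrow at the median.

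The related lists were read on the same total, where 16% of all genes were higher and 18.3% lower in spleen, and 16.6% and 17.5% in bone marrow. In spleen, 5 of 11 tested Myc network genes were higher, among them Fbxw7 at 219 against 18.4 CPM (log2 fold change 3.5) and the Myc antagonists Mxd1 at 109 against 17.0 CPM (2.57) and Mxd4 at 139 against 30.5 CPM (2.23); 2 were lower, Mga (−1.08) and Bptf (−1.04). In bone marrow 4 were higher, Fbxw7 (3.16), Mxd4 (2.33), Mlx (1.44) and Mxd1 (1.35), and Bptf was lower (−1.10). Of 28 tested Myc targets outside the nucleolus, 5 were higher in spleen and 6 in bone marrow, the spleen count being close to the share of all genes. Slc3a2 (3.13 and 3.31), the polyamine enzymes Srm (2.29 and 2.29) and Odc1 (1.96 and 1.92) were in both. The 3 lower in spleen were the DNA repair enzyme Apex1, at 9.13 against 71.4 CPM (−3.18), Phb (−1.68) and C1qbp (−1.09). Of 59 other assembly genes, 1 was higher in spleen (Krr1, 1.41) and 6 were lower, led by Nop10 (−1.74) and Tex10 (−1.33). In bone marrow 2 were higher, Krr1 (1.93) and Bysl (1.65), and 3 were lower, Rrp36 (−1.26), Nop53 (−1.002) and Emg1 (−0.96).

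Between bone marrow and spleen antibody-secreting cells, no tested member passed the test. On deposited CPM 0 of 24 were called by limma, beside 4.24% of all genes, and 0 had an unadjusted p under 0.05, beside 22.8%. On the total without immunoglobulin 0 were called, beside 0.361%, and 3 were higher in bone marrow at an unadjusted p under 0.05, beside 6.64%. On that total the median was 0.47, against 0.04 over all genes tested, and 6 of the 36 lay wholly above spleen (Ubtf, Nop58, Npm1, Nolc1, Heatr1 and Tsr1), beside 5.65% of all listed genes. Nolc1, a chaperone of snoRNPs, had the value 1.18 (SE 0.35, adjusted p = 0.186).

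One library carried much of the spread in bone marrow. Replicate 3 held the highest of the 3 bone marrow values for 31 of 36 members on the total without immunoglobulin, beside 40.6% of genes, and its median ratio to the mean of the other libraries was 2.20, against 1.03 over genes. Ncl stood at 253.4, 139.9 and 759.4 CPM and Npm1 at 104.8, 82.5 and 229.3 CPM in replicates 1, 2 and 3. Myc in replicate 3 was 2.80 times the mean of the other libraries. A list of 18 cell cycle genes ran with it, at 635, 694 and 2023 CPM in the same libraries. Neutrophil genes did not follow that order, at 323, 1693 and 1185 CPM. Their part in the members' levels was not tested.

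**Figure D5:**
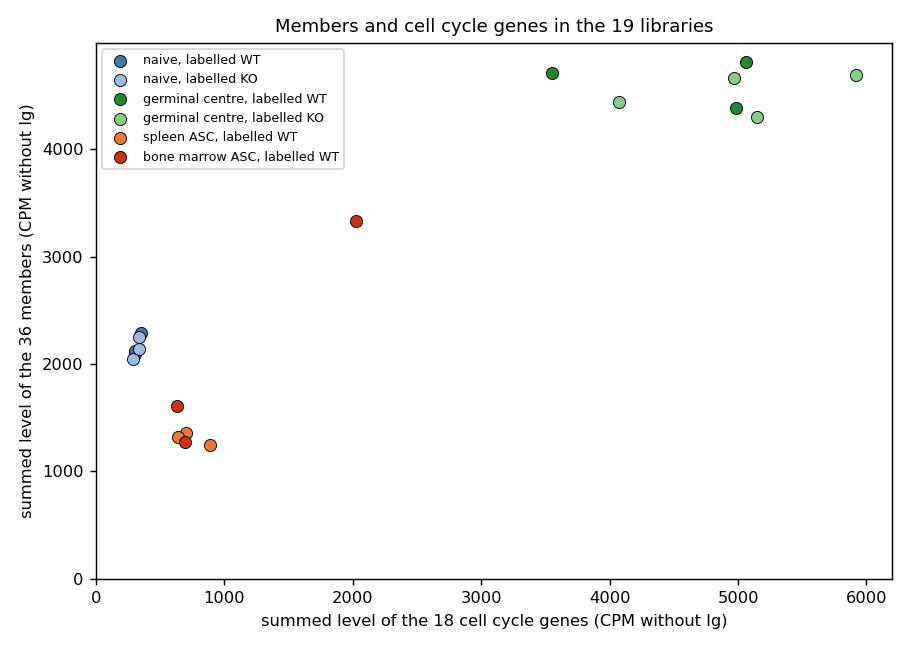
Each point is 1 of 19 libraries, with the sum of 18 cell cycle genes on the x axis and the sum of the 36 members on the y axis, both in CPM of the total without immunoglobulin. Naive libraries sit at 291 to 353.7 CPM and germinal centre libraries at 3555 to 5921 CPM of cell cycle genes, and bone marrow replicate 3 stands apart from the other secreting libraries at 2023 CPM.

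Over the whole series the cell cycle sum and the members' sum had different orders. Spleen secreting libraries had a cell cycle sum of 637 to 889 CPM, above the naive range of 291 to 353.7 CPM, and a members' sum of 1247 to 1358 CPM, below the naive range of 2043 to 2285 CPM. Germinal centre libraries were above naive libraries in both sums. The libraries of a group share their sort and their table, so these orders are descriptions.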

How the data were processed

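Bulk RNA-seq libraries of sorted B-lineage cells were grouped by their sample labels. The authors deposited CPM values in 4 tables; each library sums to 1000000 once the 0.0001 present in every germinal centre value is subtracted. The submitters' processing notes name STAR and mm10 without versions. No counter, annotation or strand setting is given in the sources used here. Of values under 1000 reads, 61.6% to 67.8% (germinal centre) and 85.3% to 88.9% (other tables) were whole reads within 0.02, so no count test was run. The worth of 1 read gave depths of 16.5 to 21.6 M reads (1 M is 1000000) in germinal centre and 10.2 to 17.6 M in other libraries. In 3 tables, 19 symbols altered into dates were dropped.

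Each comparison was fitted with limma 3.58.1 in R 4.3.3 (lmFit, eBayes with trend) on log2(CPM + 1), which understates changes of low genes, over all genes averaging 10 CPM or more. Calls were Benjamini-Hochberg adjusted p-values under 0.05 over all genes tested. Spleen, bone marrow and naive libraries labelled wild type shared 1 fit, so both secreting comparisons share their naive libraries. Intervals are 95%. Replicates are separate labelled samples; where they do not come from separate mice, the p-values measure technical spread. Totals without immunoglobulin leave out genes whose biotype starts with IG_ and Jchain. Positions are from GENCODE M21, and sequences from RefSeq promoters of build GRCm38.p6. The limma steps were also run on simulated counts with the same spread parameter for every gene, for the germinal centre and naive label comparisons only. That run did not cover totals without immunoglobulin, the secreting cell fits or the genotype difference. Tables were handled in Python 3.11.15 with pandas 2.3.3.

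All 36 members were described by role, and in related lists the up to 4 called genes with the largest change in each direction were named. The members and lists were chosen with earlier results of these data known. Alternatives covered the pseudocount, filter, scaling, sample weights, threshold, replicate block and each library left out; those that combine settings, and the germinal centre fit without replicate 1 labelled knockout and replicate 3 labelled wild type, were added after seeing the data.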

Additional observations from a re-analysis of the deposited data

Results flagged for a closer look

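Among the 36 members in the 4 germinal centre libraries labelled knockout, 2 had a library far from the others. Utp20 stood at 8.51 CPM in replicate 1 and at 0.0555 to 1.09 CPM in the others. Wdr75 stood at 26.9 CPM in replicate 4 and at 82.9 to 90.3 CPM in the others. Chance alone gives about 1 such library in 20 groups of this size.

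The difference between germinal centre and naive B cells in the label effect on Pno1 was −1.81 on the log2 scale (limma adjusted p = 0.00207): 4 of 4 germinal centre libraries labelled knockout lay below all 3 labelled wild type, while the naive libraries overlapped.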

How the results depend on the processing

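In germinal centre B cells the 3 called members (2 higher, 1 lower) stayed within 1.5 times under pseudocounts of 0.25 and 5, either filter alternative alone, median-ratio scaling and array weights. On the total without immunoglobulin with no filter, 1 was called (0 higher, 1 lower). On the total without immunoglobulin with the filter 2 were lower, and at an adjusted p under 0.1 the count was 5 with 2 lower. Without replicate 1 labelled knockout and replicate 3 labelled wild type together, 1 was higher. Leaving out 1 library at a time gave 1 to 5 called, 0 to 4 higher and 1 to 2 lower. For the genotype difference, called with 1 lower and 0 higher, a filter of 1 CPM and no filter each gave 2, both lower; array weights and an adjusted p under 0.1 each gave 2, of which 1 was higher; leaving out a library gave 1 to 2 called, 0 to 1 higher.

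For spleen secreting cells, 24 lower members became 4 on the total without immunoglobulin, 5 under median-ratio scaling and 3 without immunoglobulin and filter. For bone marrow, 24 became 1 (1 higher, 0 lower) on the total without immunoglobulin and under median-ratio scaling, 0 without immunoglobulin and filter, and 8, all lower, with immunoglobulin and replicate 3 removed together. Leaving out a library alone, on deposited CPM, gave 22 to 24 in both. Members with negative values on deposited CPM turned positive on the total without immunoglobulin and under median-ratio scaling. In spleen these were Gnl3 (0.20 and 0.19), Pno1 (0.31 and 0.30) and Ppan (0.25 and 0.23). In bone marrow they were Nop58 (0.13 and 0.045), Nolc1 (0.51 and 0.42), Gnl3 (0.46 and 0.34), Tsr1 (0.13 and 0.040), Pno1 (0.79 and 0.69, or 0.70 without replicate 3 and immunoglobulin) and Ppan (0.29 and 0.20), with Ddx21 at 0.039 on the total without immunoglobulin. Removing immunoglobulin or rescaling raises every other gene of these libraries by construction.

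The median over the members was taken in each library and averaged over the libraries of a group, in deposited CPM, without immunoglobulin and median-ratio scaled. It was 36.7, 38.3 and 21.6 in naive cells labelled wild type, and 37.1 and 21.6 (deposited and scaled) in those labelled knockout. It was 65.1, 73.7 and 40.1 in germinal centre B cells labelled wild type, and 68.2 and 40.2 in those labelled knockout. It was 6.98, 26.9 and 15.6 in spleen and 7.05, 36.3 and 19.6 in bone marrow secreting cells. Germinal centre levels were highest under each scaling.

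Between naive and secreting cells and between labels, deviations of same-numbered libraries correlated at −0.047 to 0.079, and of other pairs at −0.080 to 0.064. These ranges overlapped. Between bone marrow and spleen secreting cells, same-numbered libraries correlated at 0.054 to 0.144, above other pairs at −0.143 to 0.027. Whether these libraries share mice was not tested, and the main fit treated them as unpaired. More libraries are labelled wild type than the series design names wild-type mice, so under that design some would share a mouse. Xist stood at 76.2 to 122 CPM in naive libraries labelled wild type and at 0 in germinal centre replicate 3 labelled wild type. That library thus differs from those naive libraries in this sex marker. With a replicate block the germinal centre count was 3, and no other count of called members changed.

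The label difference of Myc, which passed in no fit, changed sign with the library left out: it ran from −0.24 without naive replicate 2 labelled wild type to 0.28 without replicate 3 in naive B cells, and from −0.41 without replicate 3 to 0.11 without replicate 2 in the genotype difference.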
